A study of Mus musculus with 109 samples.

Results

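The comparison asked whether retinas without Sarm1 answered an intravitreal injection of IL1A+TNF differently from WT retinas, within the second batch of the study alone. It is a difference of differences on the log2 scale: the change from PBS to IL1A+TNF in Sarm1-/- retinas minus the same change in WT retinas. A value below 0 therefore marks a smaller rise, or a deeper fall, in Sarm1-/- retinas, and it is called the interaction value here. The members were the 23 retinas that the metadata place in batch 2 at time 2, of 109 retinas in the series. Each was a bulk poly(A) RNA library from a whole retina dissected 2 days after the injection, from mice 2 to 4 months old. WT mice were C57BL/6J. The other genotype, labelled Sarm.KO and written Sarm1-/- here, came from a stock deficient in Sarm1 in all tissues and not through a Cre, so the comparison cannot tell neurons from glia or leukocytes as the site of the deficiency. There were 5 WT PBS, 6 WT IL1A+TNF, 6 Sarm1-/- PBS and 6 Sarm1-/- IL1A+TNF retinas, from 6 WT and 6 Sarm1-/- mice. In 11 of the 12 mice one eye received PBS and the fellow eye IL1A+TNF, and WT mouse 61719 contributed its IL1A+TNF retina only. Each group held 3 females and 3 males, apart from WT PBS with 2 females and 3 males. The female Sarm1-/- mice were 61765, 61924 and 61926, and the male ones were 61561, 61564 and 62221.

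SARM1 is an enzyme that cleaves NAD, and in injured neurons its activation empties the axon of NAD and starts axon degeneration. IL1A and TNF are cytokines that activated microglia release, and both signal through NF-kB in astrocytes, Müller glia, microglia and blood vessels. In the retina they drive glia into a reactive state, induce chemokines and adhesion molecules, draw in leukocytes and can lead to the death of retinal ganglion cells (RGCs), the neurons whose axons form the optic nerve. A difference between genotypes in the response would show whether inflammatory or neuronal transcripts answer the cytokines in another way when SARM1 is missing.

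The 23 libraries held between 42875980 and 79064488 counted read pairs, and 19668 of the 37315 listed genes had enough counts to be tested. Levels are given in CPM, a gene's counts scaled to the size of its library, which compare a gene between retinas and not genes of different length with each other. In bulk tissue a lower level can come from fewer cells of a type or from less RNA per cell, which cannot be told apart here. The targeted gene was checked first. Sarm1 (ENSMUSG00000050132, GRCm38 chr11:78472330-78497754) ranged from 85 to 127 CPM in WT retinas and from 27.2 to 54.2 CPM in Sarm1-/- retinas, so no retina went against its label. Its level was lower by 1.40 on the log2 scale in PBS retinas (limma, false discovery rate, FDR, 1.2e-06), and its interaction value was 0.02 (95% confidence interval -0.34 to 0.38). Which exons are deleted is not given in the sources used here, so the remaining counts do not show whether a protein could be made.

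4 Sarm1-/- mice stood apart from the rest, and the main counts, some of the gene lists and some of the genes are also given without them. Lists and genes with no such values are given with all mice only. In a principal component analysis, in which the first component held 44% of the variance, the IL1A+TNF retinas of mice 61924 and 61926 lay at 123 and 129, while the other IL1A+TNF retinas lay between -16.4 and 60.3. In mice 61561 and 61564 the PBS retinas were high in transcripts of leukocytes. Ccr2, the chemokine receptor of monocytes, was at 12.4 and 18.8 CPM in these PBS retinas and at 0.482 to 6.57 CPM in the other 9. S100a9, an abundant neutrophil protein, was at 26.6 and 18.8 CPM in them, and at most 3.31 CPM in any of the other Sarm1-/- PBS retinas. The eye and injection labels were used as deposited, and whether they hold for these mice was not tested. The lens crystallin Cryaa reached 773 CPM in the PBS retina of WT mouse 62224, 2880 CPM in the IL1A+TNF retina of WT mouse 61721, 3350 CPM in the PBS retina of mouse 61561 and 4020 CPM in the IL1A+TNF retina of mouse 61926. It was at 334 CPM in the IL1A+TNF retina of mouse 62221 and at most 23.4 CPM in the others. The part of leukocytes, lens tissue or these mice in the values below was not tested except by leaving the mice out.

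No gene passed the test for the interaction at an FDR under 0.05 (limma, 0%), and the lowest FDR was 0.752. At an unadjusted p under 0.05 there were 1125 genes, of which 586 (2.98% of those tested) had a smaller or more negative response in Sarm1-/- retinas and 539 (2.74%) a larger one. The edgeR quasi-likelihood test also called 0 genes, with 1260 at an unadjusted p under 0.05. DESeq2 called 13 genes (0.0661%), with adjusted p-values from 0.0254 upwards, and 12 of these, among them Prcp, Otulinl, Adcy7, Ifit2, Entpd1, Gpr65, Ly6e and Gbp4, had a smaller response in Sarm1-/- retinas. The median standard error was 0.21 on the log2 scale, and for 12931 genes (65.7%) the 95% interval lay within 1 log2 unit of 0. For those genes a difference in response of more than 2-fold lies outside the interval, and for the others it does not.

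Each genotype responded strongly on its own. In WT retinas 4110 genes were called (limma, 20.9%), 2625 higher (13.3%) and 1485 lower (7.55%). In Sarm1-/- retinas 6064 genes were called (30.8%), 3232 higher (16.4%) and 2832 lower (14.4%). Both counts, and their order, depended on the mice. Without 61924 and 61926 the WT count was 7266 and the Sarm1-/- count 156. Without 61561 and 61564 as well they were 6869 and 777. Between genotypes, 2 genes were called in PBS retinas (0.0102%) and 129 in IL1A+TNF retinas (0.656%), 96 of them lower in Sarm1-/- retinas (0.488%). The count of 129 was 5 without mice 61924 and 61926, and 1 without all 4 mice. The genes with the smallest interaction p leaned to one side. Of the 100 genes with the smallest p among the 15228 with a mean of at least 1 CPM, 67 had a value below 0. Over all 19668 genes tested 10516 did. Of the 100, 63 were called higher and 22 lower after IL1A+TNF in WT retinas. The WT change is subtracted in the interaction value, so a value below 0 and a rise in WT retinas are not independent. These counts are a description of genes picked in the same retinas and add no further test.

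**Figure D1:**
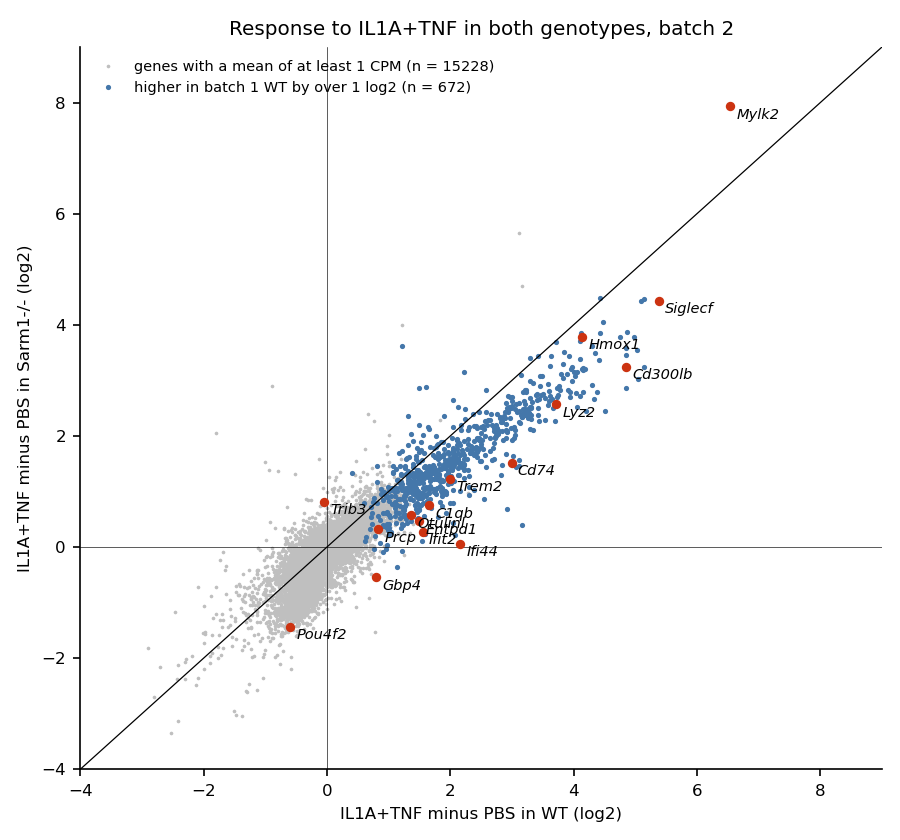
Each point is a gene with a mean of at least 1 CPM (15228 genes), placed by its log2 change from PBS to IL1A+TNF in WT retinas (x axis) and in Sarm1-/- retinas (y axis); blue points are the 672 genes among them that rose by over 1 log2 unit in WT retinas of batch 1, red points are named genes and the diagonal marks equal responses. Prcp, Entpd1, Ifit2, Ifi44, C1qb, Cd74 and Lyz2 sit below the diagonal, Trib3 sits above it and Hmox1 lies close to it.

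The genes with the smallest interaction p included several genes of microglia, macrophages and other leukocytes that rose in WT retinas and had smaller log2 changes in Sarm1-/- retinas, none of them past the test for the interaction. Prcp, a lysosomal peptidase that trims proline-linked peptides such as angiotensin II, had the smallest p. In PBS retinas it was at 9.71, 10.7 and 12.1 CPM (lowest, median, highest) in WT and at 9.62, 10.5 and 12.6 CPM in Sarm1-/- mice. After IL1A+TNF it was at 17.5, 19.1 and 20.9 CPM in WT and at 12.2, 13.3 and 14.4 CPM in Sarm1-/- mice. The PBS groups overlapped and the IL1A+TNF groups did not. Prcp rose by 0.83 ± 0.08 (log2, SE) in WT and by 0.32 ± 0.08 in Sarm1-/- retinas, with an interaction value of -0.52 (95% interval -0.74 to -0.29, limma p = 0.00011, FDR 0.752). Between IL1A+TNF retinas Prcp passed the test (log2 difference -0.53, limma FDR 0.00061). Its interaction value was -0.47 without mice 61924 and 61926, -0.49 without 61561 and 61564, and -0.38 without all 4.

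Adcy7, an adenylyl cyclase that makes cyclic AMP in leukocytes, was at 17.9, 21.2 and 24 CPM in WT and at 10.5, 14.1 and 15.6 CPM in Sarm1-/- retinas after IL1A+TNF. The PBS retinas of the genotypes overlapped, from 7.26 to 9.19 CPM. Its interaction value was -0.56 (-0.83 to -0.28, limma p = 0.00042), and its level in IL1A+TNF retinas passed the test between genotypes (-0.62, limma FDR 0.00061). Otulinl, a catalytically inactive relative of a deubiquitinase of linear ubiquitin chains, was at 17, 18.5 and 24.4 CPM in WT and at 9.93, 12.1 and 15.4 CPM in Sarm1-/- retinas after IL1A+TNF. It rose by 1.36 in WT and by 0.57 in Sarm1-/- retinas, and the interaction value was -0.80 (-1.18 to -0.42, limma p = 0.00028). Entpd1 encodes CD39, the microglial surface enzyme that breaks down extracellular ATP. It was at 23.2, 26.3 and 36.4 CPM in WT and at 14.2, 16.6 and 20.3 CPM in Sarm1-/- retinas after IL1A+TNF. Again the IL1A+TNF groups did not overlap, and the interaction value was -1.03 (-1.53 to -0.53, limma p = 0.00036). All 3 of these genes kept interaction values below 0 without the 4 mice, at -0.37 for Adcy7, -0.39 for Otulinl and -0.57 for Entpd1.

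Lower down the same list were Gpr65, an acid-sensing receptor of leukocytes (interaction value -1.23), Ly6e, an interferon-induced surface protein (-0.72), Esyt1, a tether between the endoplasmic reticulum and the plasma membrane (-0.41), and Sema4d, a semaphorin (-0.41). Pald1 (-0.51), Fam49a (-0.38) and ENSMUSG00000048107 (-0.70) completed the genes with values below 0 in the first 15 beside the interferon and complement genes described further on. Fam49a differed from the rest in that it did not pass the test in WT retinas (0.14, limma FDR 0.13) and fell in Sarm1-/- retinas (-0.24, limma FDR 0.015). These genes were picked for their p in the same retinas, so their values between the eyes of each mouse are a description and add no further test. The differences between the eyes of all 6 Sarm1-/- mice lay below those of all 5 WT mice for Prcp, Otulinl, Ly6e, Entpd1, Adcy7, Fam49a, Esyt1, Sema4d, Gpr65 and ENSMUSG00000048107. This held for 50 genes in all (0.254%), and the opposite order held for 31 (0.158%).

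**Figure D2:**
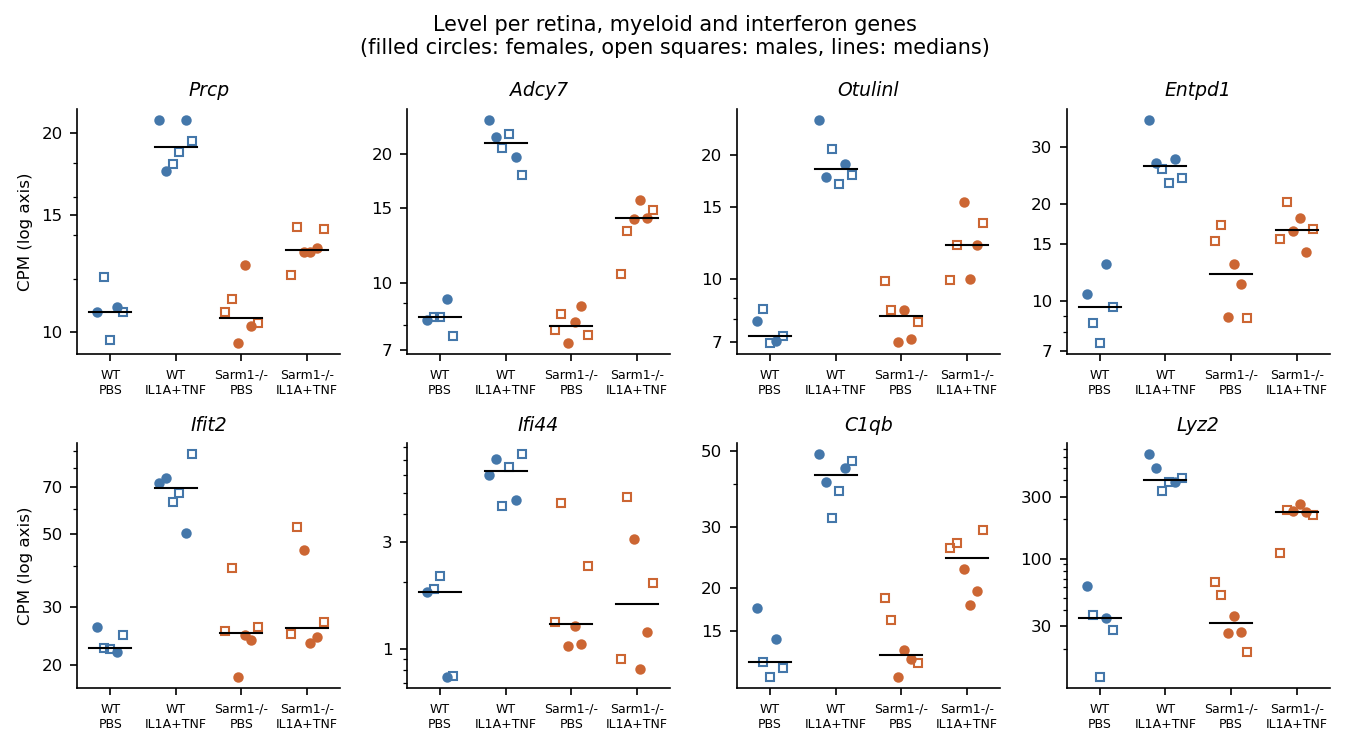
Level of 8 genes in every retina (CPM, log axis) by genotype and injection; filled circles are females, open squares males and lines group medians. PBS levels overlap between genotypes, and after IL1A+TNF the Sarm1-/- points of Prcp, Adcy7, Otulinl, Entpd1, C1qb and Lyz2 lie below every WT point.

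**Figure D3:**
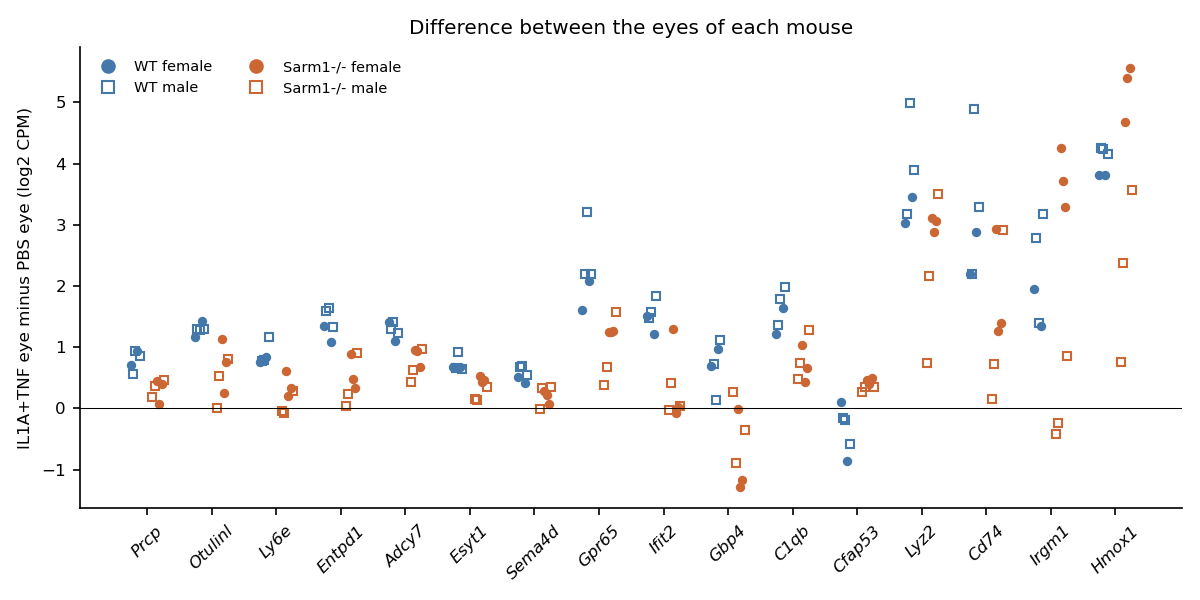
Difference between the IL1A+TNF eye and the PBS eye of each mouse (log2 CPM, y axis) for 16 genes; blue marks the 5 WT mice, orange the 6 Sarm1-/- mice, filled circles females and open squares males. For Prcp the WT mice lie between 0.56 and 0.945 and the Sarm1-/- mice between 0.0661 and 0.462, whereas for Irgm1 the Sarm1-/- mice fall on both sides of the WT range.

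Most markers of microglia and macrophages had values in the same direction. The interaction value was below 0 for 7 of 8 microglia markers, and the highest was 0.11. Of 11 homeostatic microglia genes 9 had values below 0, with a median of -0.26, and 2 had a p under 0.05 (limma). Csf1r, the growth factor receptor on which microglia depend, was at 62.6, 82.4 and 94.8 CPM in WT and at 36, 55.7 and 58.6 CPM in Sarm1-/- retinas after IL1A+TNF, without overlap. Its interaction value was -0.60 (-1.02 to -0.18, limma p = 0.0077), and the difference between IL1A+TNF retinas passed the test (-0.69, limma FDR 0.016). Trem2, a lipid-sensing receptor of phagocytic microglia, was at 6.7, 10.4 and 12.5 CPM in WT and at 4.56, 5.02 and 7.36 CPM in Sarm1-/- retinas. Here mouse 62221, at the top of the Sarm1-/- group, overlapped the lowest WT retina. Trem2 rose in both genotypes, by 1.99 and 1.23, and the interaction value was -0.76 (-1.30 to -0.21, limma p = 0.0086). Cx3cr1, the fractalkine receptor of microglia, rose by 0.92 in WT retinas and had a value of 0.02 in Sarm1-/- retinas (limma FDR 0.97). That value near 0 was a mean of mice that went both ways: Cx3cr1 differed between the eyes by -1.24 and -0.844 in mice 61926 and 61924 and by 0.0545 to 0.965 in the other 4 Sarm1-/- mice, against 0.53 to 1.51 in WT mice. Its interaction value of -0.90 was -0.45 without mice 61924 and 61926 (limma p = 0.13). Of the 8 microglia markers tested, 4 had an interaction p under 0.05 with a value below 0 and none above, and 2 of the 8 were called lower in Sarm1-/- retinas after IL1A+TNF. The median interaction value was -0.43 over the 8 and -0.02 over all genes tested. Without the 4 mice the median was -0.43 as well, but none had a p under 0.05 in that smaller set, where 0.829% of genes did with a value below 0 and 1.53% with a value above 0.

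Lyz2 and Cd300c2, chosen after their values were seen, are given as examples of myeloid genes. Lyz2, lysozyme of macrophages and neutrophils, was at 330, 404 and 635 CPM in WT and at 111, 230 and 265 CPM in Sarm1-/- retinas after IL1A+TNF. In PBS retinas it was at 12.2 to 66.3 CPM over both genotypes. It rose by 3.72 in WT and 2.57 in Sarm1-/- retinas, with an interaction value of -1.15 (-2.10 to -0.20, limma p = 0.020). Cd300c2 rose by 3.30 and 2.12. Without mice 61561 and 61564 the interaction value was -0.57 for Lyz2 (limma p = 0.11) and -0.75 for Cd300c2, and without all 4 mice it was -0.39 and -0.27. Among the 20 genes of disease-associated microglia, 6 had an interaction p under 0.05, all with values below 0, and the median was -0.41. Ctsb, a lysosomal cathepsin, was among them (-0.39, limma p = 0.010), as was Timp2, an inhibitor of metalloproteinases (-0.49, limma p = 0.0082). In each genotype 15 of these 20 genes rose. The number that rose in Sarm1-/- retinas was 4 without mice 61924 and 61926, 15 without 61561 and 61564, and 10 without all 4. Over all genes 132 of 19600, 4467 of 19629 and 514 of 19658 rose. Without mice 61561 and 61564 the median interaction value was -0.08, with 3 of the 20 at a p under 0.05 (background 9.75% below and 4.3% above 0).

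Interferon genes gave some of the larger interaction values, in some genes alike in both sexes and in others of opposite sign in females and males. Interferon-stimulated genes are driven by transcription factors that bind a pair of GAAA repeats in their promoters, the interferon-stimulated response element. The promoters of 3 interferon-gamma-induced GTPases show it, in the 100 bases before the RefSeq start on the gene's strand, with the matches to GAAA, any 2 bases and GAAA again, or to the same letters on the other strand (TTTC, any 2 bases, TTTC), in capitals (RefSeq, GRCm38.p6, Gbp2 at chr3:142620563-142620662 on the plus strand, Gbp7 at chr3:142530236-142530335 on the plus strand, Irgm1 at chr11:48871421-48871520 on the minus strand):
Gbp2: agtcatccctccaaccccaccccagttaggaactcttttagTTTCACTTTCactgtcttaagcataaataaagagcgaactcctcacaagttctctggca
Gbp7: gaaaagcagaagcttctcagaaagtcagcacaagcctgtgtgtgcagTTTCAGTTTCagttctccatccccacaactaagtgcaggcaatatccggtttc
Irgm1: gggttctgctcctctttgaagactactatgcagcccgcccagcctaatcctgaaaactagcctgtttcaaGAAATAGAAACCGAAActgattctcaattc

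This motif, searched on both strands from 250 bases before to 50 bases after the start, occurred in 3.44% of 32851 promoter windows. It occurred in the windows of 9 of the 9 interferon-gamma GTPases with a sequence, of 11 of 17 type I interferon genes (64.7%) and of 4 of 14 MHC class I genes (28.6%). None of 4 MHC class II, 8 complement or 6 homeostatic microglia genes with a sequence held it. In Irgm1 the capitals are 2 overlapping matches.

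Ifit2, an interferon-induced protein that binds viral RNA, was at 50.6, 69.4 and 87.9 CPM in WT retinas after IL1A+TNF. In Sarm1-/- retinas it was at 23.3, 25.9 and 52.7 CPM after IL1A+TNF and at 18.3, 25 and 39.5 CPM after PBS. After IL1A+TNF 4 of the 6 Sarm1-/- retinas thus lay within the range of the PBS ones, those of mice 61564 and 61765 lay above it, and that of 61564 alone reached the WT range. Ifit2 rose by 1.55 ± 0.21 in WT and had a value of 0.27 ± 0.21 in Sarm1-/- retinas (limma FDR 0.32), an interaction value of -1.28 (-1.90 to -0.66, limma p = 0.00032). The value was -1.04 in females and -1.48 in males, and -0.88 without all 4 mice. Ifi44, another interferon-induced gene, was at 4.35 to 7.44 CPM in WT and at 0.812 to 4.8 CPM in Sarm1-/- retinas after IL1A+TNF, overlapping through mouse 61564 only. Its interaction value was the largest in size of the interferon list at -2.10 (-3.41 to -0.80, limma p = 0.0030). Gbp4, a guanylate-binding GTPase, rose in WT retinas (0.79) and had a value of -0.55 in Sarm1-/- retinas (limma FDR 0.086), an interaction value of -1.34 (-2.05 to -0.63, limma p = 0.00080). After IL1A+TNF it was at 3.05 to 4.06 CPM in WT and at 0.794 to 2.3 CPM in Sarm1-/- retinas, without overlap.

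Irgm1, which guards the cell against intracellular bacteria, showed another pattern. After IL1A+TNF it was at 26, 88.9 and 178 CPM in WT retinas, at 172 to 202 CPM in female Sarm1-/- mice and at 19, 30.5 and 34 CPM in male ones. The male values lay within or below the WT range, the female ones reached from within it to above it, and the sexes of Sarm1-/- mice did not overlap. Over both sexes the interaction value was -0.34 (-2.39 to 1.72, limma p = 0.73). Within the sexes it was 1.59 in females and -2.39 in males, a difference of 3.98 that did not pass the test (limma FDR 0.059). Gbp2 was high already after PBS in some Sarm1-/- mice, at 50.5 CPM in mouse 61564, 26.6 CPM in 61561 and 25.2 CPM in 62221 against 9.03 to 18.2 CPM in WT PBS retinas. Its interaction value of -1.02 (limma p = 0.021) was -0.53 without 61561 and 61564.

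Of the 23 type I interferon genes tested, 22 had interaction values below 0, with a median of -0.63, and 3 had a p under 0.05. In WT retinas 14 of the 23 rose and in Sarm1-/- retinas 5. The count of 5 was 14 without mice 61561 and 61564, 0 without 61924 and 61926, and 0 without all 4. Over all genes 4467 of 19629, 132 of 19600 and 514 of 19658 rose. For 10 of the 23 the interaction value was called higher in females than in males (background 1.44%), with medians of 0.73 in females and -2.10 in males. Of the 12 interferon-gamma GTPases tested, all 12 had values below 0 (median -0.80), and 3 had a p under 0.05. Without mice 61924 and 61926 the median was -1.22 for the type I list and -1.21 for the GTPases, and without mice 61561 and 61564 it was 0.15 and -0.29. The direction for the type I list therefore turned with the mice that entered the fit.

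Antigen presentation and complement genes all had values below 0. All 7 genes of MHC class II presentation rose in WT retinas, 4 rose in Sarm1-/- retinas, and all 7 had an interaction p under 0.05 with a value below 0 (median -1.36). 5 of the 7 were called lower in Sarm1-/- than in WT retinas after IL1A+TNF. Cd74, the invariant chain that escorts class II molecules, was at 54.9, 81.7 and 137 CPM in WT and at 25.1, 33.9 and 69.3 CPM in Sarm1-/- retinas after IL1A+TNF. The groups overlapped through mouse 62221, the highest of the Sarm1-/- retinas. Cd74 rose by 2.99 and 1.51, and its interaction value was -1.48 (-2.62 to -0.34, limma p = 0.013). H2-Aa, a class II chain, rose by 3.12 and 1.56 (interaction value -1.56, limma p = 0.026). Ciita, the master transcription factor of the class II genes, rose by 1.14 in WT and had a value of 0.25 in Sarm1-/- retinas (interaction value -0.89, limma p = 0.0087). The class II values depended on the mice in the fit. The 4 genes that rose in Sarm1-/- retinas became 6 without mice 61561 and 61564, 0 without 61924 and 61926, and 5 without all 4. Over all genes 4467 of 19629, 132 of 19600 and 514 of 19658 rose. The median interaction value of the class II genes was -1.30 without mice 61924 and 61926, with 4 of the 7 at a p under 0.05 (background 5.59% below and 3.71% above 0). It was -0.87 without 61561 and 61564, with 1 of the 7 (background 9.75% below and 4.3% above 0). Without all 4 mice the median was -0.05 and none of the 7 had a p under 0.05, with values of -0.05 for Cd74 and -0.00 for H2-Aa.

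All 16 complement genes had interaction values below 0, with a median of -0.78, and 7 had a p under 0.05. C1qb, a chain of C1q, which microglia make and which starts the classical pathway, was at 31.8, 42.5 and 48.8 CPM in WT and at 17.8, 24.4 and 29.5 CPM in Sarm1-/- retinas after IL1A+TNF. The groups did not overlap, while the PBS retinas overlapped fully between 11 and 18.7 CPM. C1qb rose by 1.66 in WT and by 0.75 in Sarm1-/- retinas, and the interaction value was -0.90 (-1.40 to -0.40, limma p = 0.0012). The other C1q chains gave -0.83 for both C1qa and C1qc, and all 3 chains were called lower in Sarm1-/- IL1A+TNF retinas. C3, the central component, rose by 2.00 in WT and had a value of 0.79 in Sarm1-/- retinas (limma FDR 0.17), and its PBS level differed by 0.87 between the genotypes (limma p = 0.071). C4b fell in both genotypes, by 0.61 and 0.89. Without all 4 mice the complement median was -0.36 and 1 of the 16 had a p under 0.05 (background 0.829% below and 1.53% above 0).

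The MHC class I list gave smaller values. All 16 of its genes rose in WT retinas and 13 in Sarm1-/- retinas, all 16 had interaction values below 0 (median -0.47), and 5 had a p under 0.05. H2-T22, a nonclassical class I gene, rose by 0.62 in WT and had a value of -0.01 in Sarm1-/- retinas, an interaction value of -0.64 (limma p = 0.0034). H2-D1, a classical class I gene, rose by 1.98 and 1.56 (-0.43, limma p = 0.34), and without mice 61561 and 61564 its interaction value was 0.12. Psme1, a proteasome activator subunit, and H2-Q6 had interaction values of -0.43 and -0.89.

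The cytokine pathway itself gave few values past an unadjusted p. The NF-kB list, with its kinases, subunits and feedback inhibitors, had no gene of 24 with an interaction p under 0.05 and a median of -0.11. Of the 24, 17 rose in WT and 15 in Sarm1-/- retinas. The Sarm1-/- count was 1 without mice 61924 and 61926, 20 without 61561 and 61564, and 4 without all 4. Over all genes 132 of 19600, 4467 of 19629 and 514 of 19658 rose. Tnfaip3, the A20 feedback inhibitor, fell by 1.19 in WT and 0.90 in Sarm1-/- retinas. Among the IL1 and TNF ligands and receptors, 2 of 9 had a p under 0.05, both below 0. They were Il1r1, the signalling receptor for IL1 (-0.66, limma p = 0.0075), and Tnf (-1.27, limma p = 0.050, and -0.54 without mice 61561 and 61564). Tnf rose by 3.03 in WT and 1.75 in Sarm1-/- retinas. Among chemokines 1 of 14 had a p under 0.05, Cxcl16 (-0.38, limma p = 0.037), which was at -0.19 without mice 61924 and 61926.

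Reactive glia genes gave intervals that were wide. None of the 13 pan-reactive glia genes had an interaction p under 0.05, the median was -0.43, and 8 of the 13 rose in each genotype. Of the 13, 0 rose in Sarm1-/- retinas without mice 61924 and 61926, 9 without 61561 and 61564, and 5 without all 4. Over all genes 132 of 19600, 4467 of 19629 and 514 of 19658 rose. Gfap, the intermediate filament of astrocytes and reactive Müller glia, rose by 1.73 in WT and 1.04 in Sarm1-/- retinas, with an interaction value of -0.69 (-1.64 to 0.27). Cp, the iron oxidase ceruloplasmin, rose by 1.55 and 0.97. The interval for Gfap holds both no difference and a response more than 2-fold smaller. Of the A1 astrocyte genes 1 of 11 had a p under 0.05, and of the A2 astrocyte genes 0 of 12. Slc1a3, the glutamate transporter of Müller glia, rose by 0.43 in WT and had a value of -0.07 in Sarm1-/- retinas (interaction value -0.50, limma p = 0.0097). Without mice 61924 and 61926 the value for Slc1a3 was -0.27, and without all 4 it was -0.20.

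Genes for cell death gave few values past an unadjusted p. Of 28 apoptosis genes none had an interaction p under 0.05, and 12 rose in WT and 13 in Sarm1-/- retinas. Over all genes 13.3% rose in WT and 16.4% in Sarm1-/- retinas. The Sarm1-/- apoptosis count was 1 without mice 61924 and 61926, 17 without 61561 and 61564, and 2 without 61561, 61564, 61924 and 61926. Over all genes 132 of 19600, 4467 of 19629 and 514 of 19658 rose in these settings. Pmaip1, which encodes the death-promoting protein NOXA, rose by 3.03 and 1.97. Of 15 necroptosis and pyroptosis genes 1 had an interaction p under 0.05, Gsdmd, the pore former of pyroptosis (1.75 and 1.02, interaction value -0.73, limma p = 0.042). Without mice 61561 and 61564 the value for Gsdmd was -0.25 (limma p = 0.35). None of 20 genes on the path from DLK to JNK and AP-1 had a p under 0.05 (median -0.04). Among 20 axon injury genes 1 did, Sox11, a transcription factor of injured neurons, which rose by 1.17 and 0.61. The 20 genes of Sarm1 and NAD metabolism had a median of -0.00, and the NAD-dependent deacetylase Sirt1 alone had a p under 0.05 (0.14, limma p = 0.040).

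Neuronal transcripts gave interaction values below 0 of similar size, with wide intervals. All 14 RGC markers fell in Sarm1-/- retinas and none was called in WT retinas, yet none had an interaction p under 0.05 (median -0.80). The count of 14 in Sarm1-/- retinas was 14 without mice 61561 and 61564, 0 without 61924 and 61926, and 0 without all 4. Over all genes 4502 of 19629, 24 of 19600 and 260 of 19658 fell in these settings, so the count of RGC markers dropped together with that of all genes. The WT calls are from the same fit, whose WT count over all genes was 4110. It was 7266 without mice 61924 and 61926, and the RGC markers among these were not counted. The median log2 change of the 14 markers was -0.35 in WT and -1.13 in Sarm1-/- retinas. The Sarm1-/- median was -0.42 without 61924 and 61926, -1.86 without 61561 and 61564, and -0.84 without all 4. In WT mice the median RGC difference between the eyes was below 0 in all 5, from -0.921 to -0.207. Pou4f2, a transcription factor of RGCs chosen after its values were seen, was at 8.31 to 11.3 CPM in PBS retinas of both genotypes. After IL1A+TNF it was at 3.81, 6.23 and 7.42 CPM in WT retinas. In Sarm1-/- retinas it was at 0.831, 0.836 and 2.55 CPM in females and at 7.83, 8.02 and 9.34 CPM in males. The female Sarm1-/- retinas lay below and the male ones above all WT retinas. Over both sexes the interaction value was -0.84 (-2.03 to 0.36, limma p = 0.16), and it was -2.69 in females and 0.60 in males, a difference of -3.29 (limma FDR 0.013). Without mice 61924 and 61926 it was -0.01.

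Nefl, the light neurofilament chain of large axons, was at 42.4, 52.3 and 151 CPM in female and at 236, 259 and 270 CPM in male Sarm1-/- retinas after IL1A+TNF, against 146 to 241 CPM in WT retinas. Its interaction value was -0.71 (-1.73 to 0.32) and became 0.09 without mice 61924 and 61926. Rgs4, a brake on G protein signalling, was the only gene called when females were analysed alone (-1.75, limma FDR 0.021). It was at 14.6, 14.9 and 20.8 CPM in female and at 52.4, 54.4 and 61.6 CPM in male Sarm1-/- retinas after IL1A+TNF, and at 31.2 to 57.5 CPM in WT. The female Sarm1-/- retinas again lay below all WT ones. Gad1, which makes GABA in amacrine cells, was at 26.3 and 28.3 CPM in mice 61924 and 61926 and at 166 to 263 CPM in the other Sarm1-/- IL1A+TNF retinas. Trpm1, the cation channel of ON bipolar cells, was at 47.8 and 58.3 CPM in those mice and at 313 to 424 CPM in the others. For both genes the low values thus came from the same 2 retinas, and without these mice the interaction value was 0.25 for Gad1 and 0.40 for Trpm1.

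The median interaction value was -0.62 over 9 amacrine, -0.46 over 10 bipolar and -0.39 over 6 horizontal cell markers, with no p under 0.05 in any of these lists. All 32 glutamate, GABA and glycine receptor genes had values below 0, with a median of -0.55, and 18 of them fell in Sarm1-/- and 1 in WT retinas. The count of 18 was 31 without mice 61561 and 61564, 0 without 61924 and 61926, and 1 without all 4. Over all genes 4502 of 19629, 24 of 19600 and 260 of 19658 fell. The median log2 change of the receptors was -0.49 in WT and -0.97 in Sarm1-/- retinas. The Sarm1-/- median was -1.66, -0.18 and -0.37 in these 3 settings. Without mice 61924 and 61926 the median interaction value of the receptors was 0.29, with 3 of 32 at a p under 0.05 above 0 (background 3.71%), and that of the RGC markers was -0.04. Without mice 61561 and 61564 the medians were -1.17 and -1.44, and 15 of 32 receptors and 13 of 14 RGC markers had a p under 0.05 below 0 (background 9.75% below and 4.3% above 0). Photoreceptor markers gave medians near 0. Gnat1, the rod transducin subunit, fell by 0.62 in WT and by 0.62 in Sarm1-/- retinas, and its interaction value was 0.00 (-0.51 to 0.52). The median was 0.11 over 10 rod and -0.11 over 10 cone markers.

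**Figure D4:**
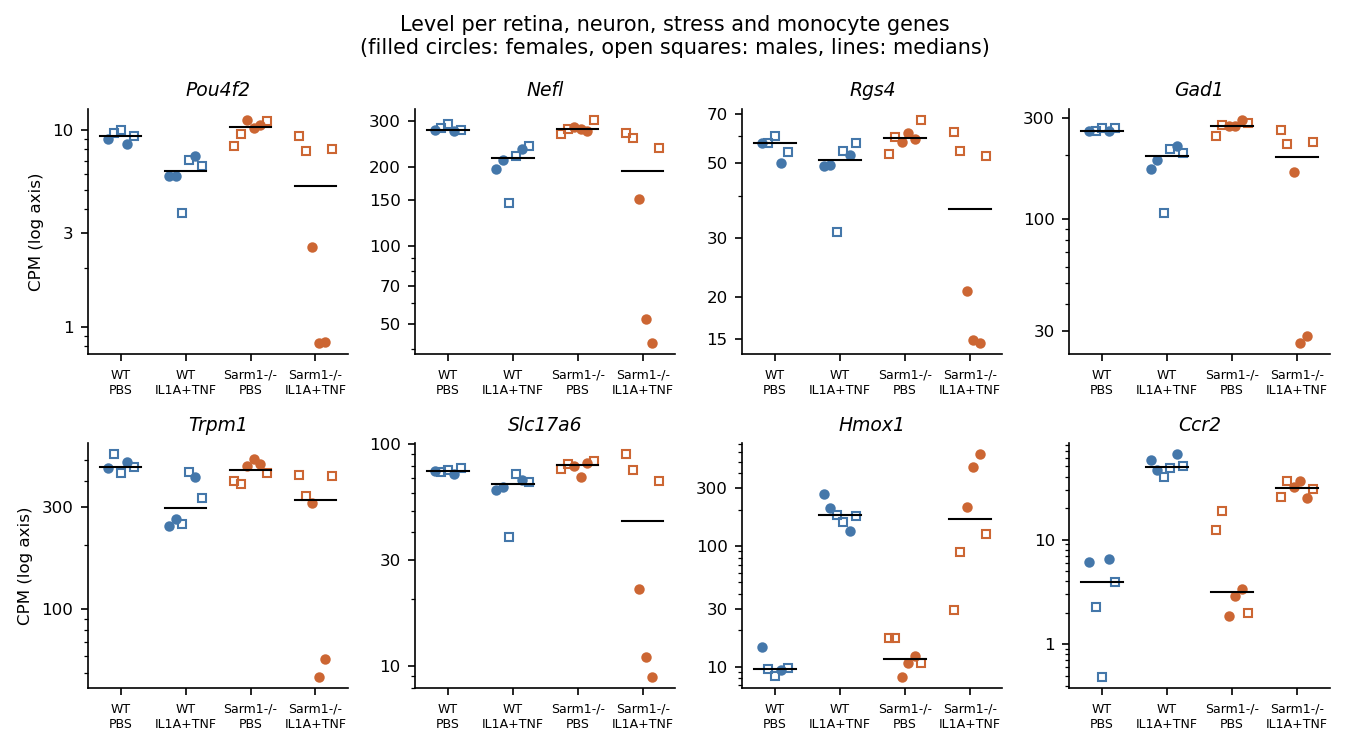
Level of 8 genes in every retina (CPM, log axis) by genotype and injection; filled circles are females, open squares males and lines group medians. In Sarm1-/- IL1A+TNF retinas Pou4f2, Nefl and Rgs4 separate the 3 females from the 3 males, Gad1 and Trpm1 are low in mice 61924 and 61926, and Ccr2 is raised in the PBS retinas of mice 61561 and 61564.

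Vessel and red cell genes were extreme in some of the same mice. Kdr, the VEGF receptor of endothelial cells, was at 136 and 98.6 CPM in the IL1A+TNF retinas of mice 61924 and 61926, at 300 to 376 CPM in the other 4 Sarm1-/- ones and at 276 to 418 CPM in WT. The 8 endothelial markers had a median interaction value of -0.59, with 2 at a p under 0.05 below 0. Without the 2 low mice the median was -0.15, and Kdr had a value of -0.38 (limma p = 0.037). Hbb-bs, a globin chain, was at 33.9 to 58.8 CPM in the 3 female and at 11.6 to 14.1 CPM in the 3 male Sarm1-/- IL1A+TNF retinas, against 8.32 to 23.7 CPM in WT. The medians of the 5 red cell genes were above 0 in each of the 3 female Sarm1-/- mice, at 1.16, 1.7 and 1.59 log2 units between the eyes. They were also above 0 in the male Sarm1-/- mouse 61561 (0.423) and in WT mice 61927 (0.586) and 62224 (0.451).

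The sexes were compared because the values above separated them. The interaction value differed between females and males for 1804 of 20608 genes (limma, 8.75%), lower in females for 1508 (7.32%) and higher for 296 (1.44%). In this fit of all 23 retinas, with a group for each sex, 1792 genes were called for females and 0 for males, with 2380 at an unadjusted p under 0.05. When the female retinas were analysed alone, 1 gene was called, with 3815 at an unadjusted p under 0.05. The Sarm1-/- response differed between the sexes for 6053 genes (29.4%), and the WT response for 0, with 715 at an unadjusted p under 0.05. Of the 14 RGC markers 13 were called lower in females. The 3 female Sarm1-/- mice include both mice with the most extreme IL1A+TNF retinas, and the 3 male ones include both mice with leukocyte transcripts after PBS. With 3 mice per sex, sex and these individual mice cannot be told apart.

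The size of the response in each mouse was measured on genes chosen in other animals. In the WT retinas of batch 1, 9663 of 18986 genes were called after IL1A+TNF (limma, 50.9%), and 842 that rose there by over 1 log2 unit were tested in batch 2. In WT mice of batch 2 the median difference between the eyes over these 842 genes was 1.63 to 2.09. In Sarm1-/- mice it was 0.03 in 61561, 0.57 in 61564, 1.39 in 62221, 2.22 in 61765, 2.32 in 61926 and 2.34 in 61924. Sarm1-/- mice thus lay on both sides of the WT range, 3 below it and 3 above it, and mouse 61561 had no median response. The level of these genes in the PBS retinas of 61561 and 61564, against the mean of the WT PBS retinas, was 0.923 and 1.05 log2 units, and at most 0.338 in any other PBS retina.

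**Figure D5:**
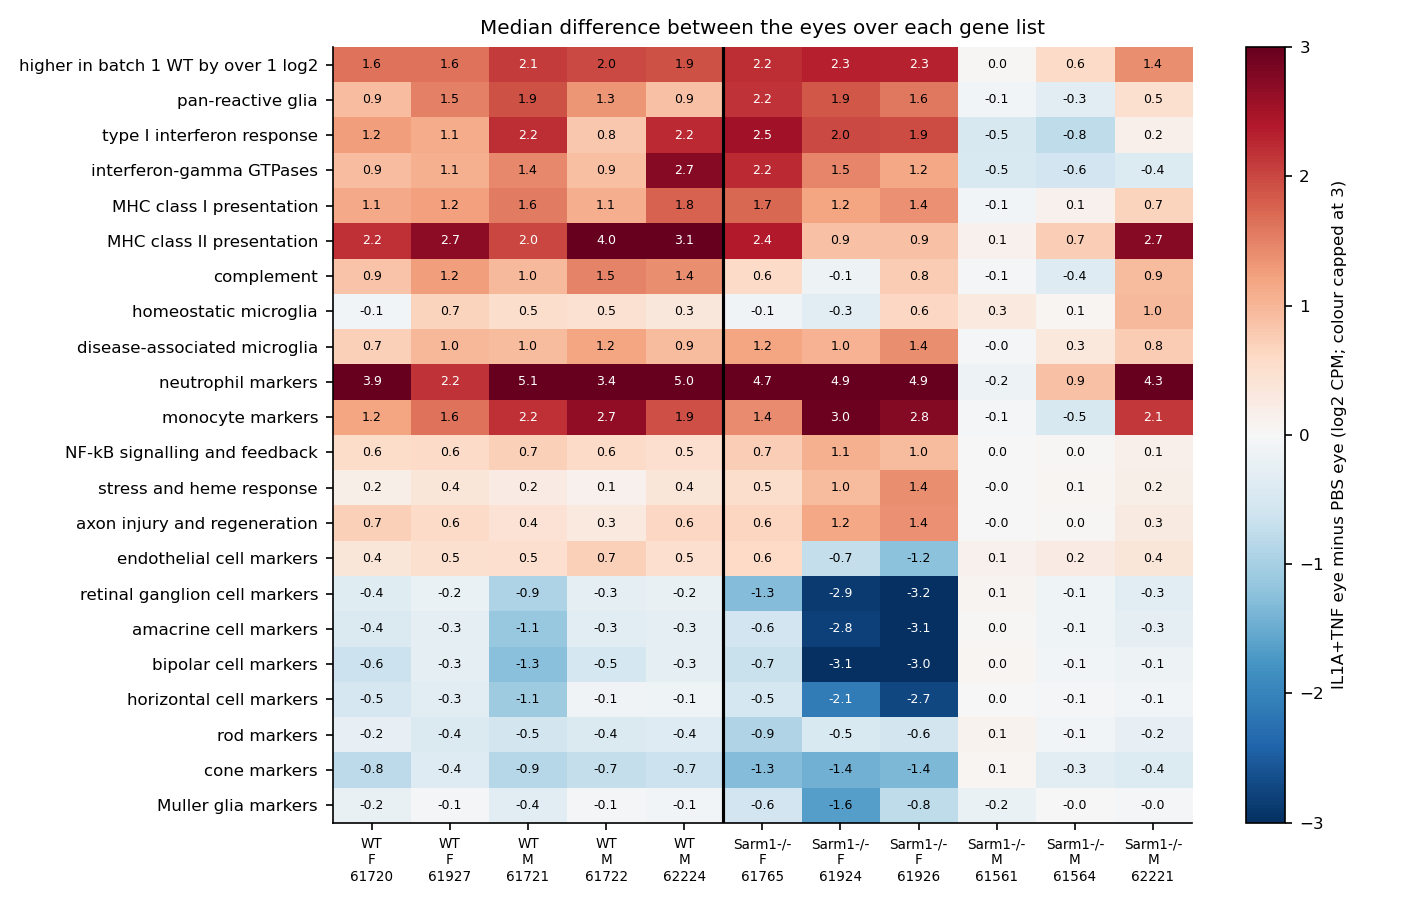
Median difference between the IL1A+TNF eye and the PBS eye (log2 CPM, colour and number) over each gene list (rows) in each mouse (columns; 5 WT mice left of the line, 6 Sarm1-/- mice right of it, with sex). The row of genes higher in batch 1 is at 0.03 and 0.57 in mice 61561 and 61564, and the RGC row reaches -2.88 and -3.24 in mice 61924 and 61926.

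Over the 842 genes the interaction value was below 0 for 737, with a median of -0.52, and 126 had a p under 0.05, all below 0. Without mice 61924 and 61926 the median was -0.99, with 364 of 841 at a p under 0.05 below 0 (background 5.59%). Without mice 61561 and 61564 it was 0.16, with 48 of 842 below and 5 above 0 (background 9.75% below and 4.3% above). The 48 are thus a smaller share than among all genes. Without all 4 the median was -0.13, with 19 below and 3 above (background 0.829% below and 1.53% above). The sign of the median over these genes therefore turned without mice 61561 and 61564, and it lay closer to 0 without all 4 mice. Of the 10 genes with the largest response in batch 1, 9 had interaction intervals that spanned 0. Hmox1, the heme-degrading enzyme, was at 133 to 267 CPM in WT retinas after IL1A+TNF and at 29.3, 89.4, 126, 210, 451 and 575 CPM in Sarm1-/- ones. It rose by 4.14 and 3.78. Siglecf, Clec4n and Acp5, receptors and an enzyme of myeloid cells, rose by 5.38 and 4.43, 4.75 and 3.79, and 4.11 and 3.37. Cd300lb, an activating myeloid receptor, was the exception (4.85 and 3.24, interaction value -1.61, limma p = 0.042). Without mice 61561 and 61564 the value for Cd300lb was -0.72 (limma p = 0.25).

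A few genes had interaction values above 0. Cfap53, a protein of motile cilia, was the only gene above 0 among the 15 with the smallest p. It was at 2.07, 2.36 and 2.6 CPM in WT PBS and at 1.41, 1.72 and 2.23 CPM in WT IL1A+TNF retinas. In Sarm1-/- mice it was at 1.47, 1.7 and 1.84 CPM after PBS and at 2.07, 2.17 and 2.5 CPM after IL1A+TNF. Its order was thus turned round between the genotypes, and its PBS groups did not overlap. It fell by 0.39 in WT and rose by 0.40 in Sarm1-/- retinas, an interaction value of 0.79 (0.44 to 1.15, limma p = 0.00014), and the value was 0.80 without all 4 mice. Trib3, a pseudokinase of the integrated stress response, was at 4.92 to 7.4 CPM in all WT retinas. In Sarm1-/- IL1A+TNF retinas it was at 10.8, 16.6 and 17.7 CPM in females and at 6.17, 6.73 and 7.26 CPM in males, so that the female ones alone lay above WT. Its interaction value was 0.85 (0.23 to 1.48, limma p = 0.010), and 0.41 without mice 61924 and 61926. Ddit3, a transcription factor of the same pathway, rose in Sarm1-/- retinas (0.57) and had a value of 0.16 in WT retinas. Its interaction value of 0.41 was 0.07 without mice 61924 and 61926 (limma p = 0.65).

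Genes on the same chromosome as Sarm1 were compared as well. Within 5 Mb of Sarm1, 188 other genes were tested. The 2 genes called in PBS retinas were Sarm1 and its neighbour Slc46a1 (GRCm38 chr11:78465697-78472059), the proton-coupled folate transporter, on the plus strand, whose annotated 3' end lies next to the 3' end of Sarm1 on the minus strand. Slc46a1 was at 25.3 to 31.3 CPM in WT and at 15.5 to 18.4 CPM in Sarm1-/- PBS retinas, without overlap (-0.80, limma FDR 5.4e-08). Whether strand was used in counting is not given in the sources used here. In IL1A+TNF retinas 7 of the 189 genes of the window, Sarm1 included, were called, beside 129 of 19668 over all genes (0.656%). The 7 were Sarm1, Slc46a1, Vps53, Tlcd2, Abhd15, Adap2 and Adap2os. Vps53 and Tlcd2 had like differences after PBS (-0.26 and 0.94) and after IL1A+TNF (-0.22 and 0.89), whereas Adap2 differed by -0.11 after PBS and -0.75 after IL1A+TNF. In the window 12 of the 189 genes had an interaction p under 0.05, beside 1125 of 19668 over all genes, and none was called (limma).

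A fit of both batches, 81 retinas, gave another count for the same contrast. It called 1763 of 20154 genes (limma, 8.75%), 1459 of them with a smaller or more negative response in Sarm1-/- retinas (7.24%). All Sarm1-/- retinas are in batch 2, so there the contrast sets 6 Sarm1-/- mice against the WT retinas of both batches and takes the WT response to be the same in both. That difference between batches was tested in WT retinas: none of 19922 genes was called (limma, 0%), the lowest FDR was 0.106 and 1186 had an unadjusted p under 0.05. DESeq2 called 1 gene. In the joint fit 23 of 32 glutamate, GABA and glycine receptors, 12 of 14 RGC markers, 5 of 12 interferon-gamma GTPases, 3 of 16 complement genes and 1 of 7 class II genes were called, each with a value below 0. For Pou4f2 the joint value was -1.04 (limma FDR 0.0092) beside -0.84 in batch 2 alone, for Ifit2 -1.28 (FDR 0.0026) beside -1.28, and for Prcp -0.30 (FDR 0.11) beside -0.52. The values thus changed little for Pou4f2 and Ifit2, and the genes with the smallest p in batch 2 alone were not all called in the joint fit. The joint fit holds the same 6 Sarm1-/- mice and was not repeated without any of them. It therefore does not show whether its calls rest on mice 61924 and 61926. In batch 2 alone the value for Pou4f2 was -0.01 without these 2 mice.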

How the data were processed

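Whole retinas of batch 2 were compared 2 days after PBS or IL1A+TNF, with groups, sex and mouse taken from the sample labels and the deposited metadata. Per the submitters' processing notes, mapping to mm10 used STAR 2.7.9a and counting per gene used featureCounts of Subread 2.0.1, and the authors deposited the raw counts, which were used as they are. The strand setting is not given in the sources used here. Genes were kept with filterByExpr (minimum count 10, minimum total 15), scaled by TMM in edgeR 4.0.16 and fitted with voom in limma 3.58.1 under R 4.3.3, with group and sex as terms and mouse as a random block in 2 rounds (consensus correlation -0.08). Benjamini-Hochberg FDRs cover all genes tested, and calls are at an FDR under 0.05. Between same-mouse eyes 5 of 11 correlations of deviations were over 0.1 (range -0.265 to 0.254), but the eyes of a number come from the same mouse, so the block was kept. CPM use TMM-scaled totals, and differences between eyes use log2 CPM with a prior count of 2. Totals of 42875980 to 79064488 make counting error small beside the spread between retinas at most levels, and p-values rest on 12 mice. Sexes were compared in a fit with sex-specific groups. Alternatives were edgeR's quasi-likelihood test, DESeq2 1.42.0, other scaling and filters, and leaving out mice. Retinas of batch 1 entered only the list of responding genes, the batch comparison and the joint fit. Genes were named by rule: the 15 smallest interaction p-values at a mean of at least 1 CPM, the 10 largest batch 1 responses, up to 3 genes of smallest p and 2 of highest CPM per list, genes the study names for PBS retinas and any gene behind a count of 5 or fewer. The comparison and the lists were chosen with earlier results of these data known. Promoter sequences came from RefSeq, and coordinates from the GENCODE annotation of GRCm38, the assembly called mm10.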

Additional observations from a re-analysis of the deposited data

Results flagged for a closer look

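Over 31 genes in 4 groups, 124 sets of values were checked for a retina far from the rest of its group. Chance gives this in about 1 set of 20, and 13 such values were found, some of them in the same retina. Single retinas above their group were Entpd1 at 36.4 CPM in the IL1A+TNF retina of WT mouse 61719, Ifit2 at 39.5 CPM and Gbp4 at 4.29 CPM in the PBS retina of Sarm1-/- mouse 61564, Trem2 at 7.36 CPM in the IL1A+TNF retina of Sarm1-/- mouse 62221 and Hmox1 at 14.5 CPM in the PBS retina of WT mouse 61720. Single retinas below their group were Lyz2 at 111 CPM in the IL1A+TNF retina of Sarm1-/- mouse 61561, Pou4f1 at 15.2 CPM and Rgs4 at 31.2 CPM in the IL1A+TNF retina of WT mouse 61721, and Il1r1 at 18.5 CPM in the PBS retina of Sarm1-/- mouse 61765. The lens gene Cryaa stood out in 1 retina of every group, at 773 CPM (WT PBS, mouse 62224), 2880 CPM (WT IL1A+TNF, 61721), 3350 CPM (Sarm1-/- PBS, 61561) and 4020 CPM (Sarm1-/- IL1A+TNF, 61926).

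The sexes differed in the interaction value for 1804 genes and in the Sarm1-/- response for 6053 genes (limma). The female value minus the male value was -2.75 for Pou4f1, -3.29 for Pou4f2, -2.04 for Nefl and -1.99 for Rgs4, each at an FDR under 0.05 (limma), with 3 mice of each sex and genotype. Sex and the individual Sarm1-/- mice cannot be told apart.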

How the results depend on the processing

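The count of 0 genes for genotype by treatment held with limma under other scaling, filters, quality weights, no sex term, males alone, each mouse left out (0 to 0) and the pairs of mice left out, and with edgeR. It became 13 with DESeq2, 1 in females and 1763 with both batches. Another contrast, the interaction value in females minus that in males, called 1804. Batch by treatment in WT went from 0 to 1 with DESeq2. The WT response (4110) was 11043 with both batches, 8128 with quality weights, 1192 in females, 7266 without mice 61924 and 61926, 6869 without all 4 mice and 2725 (without 62224) to 4657 (without 61926) with 1 mouse left out. The Sarm1-/- response (6064) was 1281 with quality weights, 9201 in females, 0 in males (1572 at an unadjusted p under 0.05), 156 and 777 without those mice, and 1048 (without 61924) to 8126 (without 61561) with 1 mouse left out; it was 1417 without 61926 and 1938 without 61765. Sarm1-/- against WT in PBS (2) was 8 with both batches, 6 with DESeq2, 0 in females (206 at an unadjusted p under 0.05) and 2 to 5 (without 62221) with 1 mouse left out. Sarm1-/- against WT in IL1A+TNF (129) was 2988 with both batches, 60 with edgeR, 454 with DESeq2, 84 without a filter, 3 with quality weights, 2732 in females, 0 in males (3988 at an unadjusted p under 0.05), 5 and 1 without the mice above, and 19 (without 61719) to 223 (without 61765) with 1 mouse left out. It was 27, 30, 26, 38 and 47 without 61561, 61924, 61926, 62224 and 61722, and 78 without 61927. The causes were not tested. Leave-out settings for mice that stood apart, and the test between sexes, were chosen after seeing the data.

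With mouse as a fixed block the interaction count stayed 0 in limma (717 at an unadjusted p under 0.05) and in edgeR (687). The WT response was 2296 and 2313 and the Sarm1-/- response 3612 and 3124 with that block, and without any block the counts were 0, 4432, 6814, 2 and 115.

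Among values that were called in either setting, or had an unadjusted p under 0.05 as reported, the sign changed for the interaction of Aif1 without all 4 mice (0.016). In males alone it changed for the Sarm1-/- responses of Stat2 (-0.056), Gbp7 (-0.30), Tnfrsf1a (-0.017), Adcyap1 (0.084) and Hbb-bs (-0.026), and the Sarm1-/- against WT differences in IL1A+TNF of Ddit3 (-0.028), Adcyap1 (0.30), Rbpms (0.15), Slc17a6 (0.43) and Rgs4 (0.28). In females alone it changed for the Gbp2 difference in PBS (-0.037). Of 3387 interaction values for 121 genes under the alternatives, 61 crossed the threshold and 205, in 61 genes, changed sign with neither value past the FDR threshold.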
